A study of Prunus persica with 21 samples.

Results

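The response of peach (Prunus persica) leaves to 1 h of the peptide PpPep2 was read from 6 of the 21 RNA-Seq libraries of the series, 3 from leaves sampled 1 h after PpPep2 and 3 from leaves sampled at time zero (t0). The other libraries came from leaves 24 and 48 h after PpPep2 and 1, 24 and 48 h after a second peptide, PpPep1 (100 nM). The test took its spread from all 21 libraries, and some of the others serve for comparison below. Juvenile cv. Big Top plants produced in vitro were kept in a glasshouse, and their youngest fully expanded leaves were sprayed on both surfaces with synthetic PpPep2 at 1000 nM, or were the control, called mock in one label and untreated in the design text. The central vein was cut out before the blades were frozen. No control leaves were sampled at 1 h among these libraries, and the hour on the plant, the spraying and the peptide therefore cannot be told apart in this comparison. The study describes 3 biological replicates per treatment, made up from several plants.

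The libraries were found by matching each column of the count table to the library statistics of the study rather than by the column headings. A column was taken as a library when its total was 0.95 to 0.99 of the read pairs assigned to a single gene in that library and the number of genes holding 25% of the counts was equal. All 21 columns matched in this way, 12 under their own heading and 9 under another. The PpPep2 1 h libraries were the 3 columns headed as PpPep1 48 h, with ratios of 0.9685 to 0.9821, against 1.0267 to 1.2911 for the libraries they are headed as. The t0 columns matched as headed, with ratios of 0.9671 to 0.9703, although the column of t0 replicate 3 met the limits for 2 libraries, its own among them. The columns of PpPep1 1 h replicate 3 and PpPep1 24 h replicate 3, used further below, also met them for 2 libraries. These columns and that of t0 replicate 3 were taken as headed, as the limits alone did not settle them. Each PpPep2 1 h column met the limits for 1 library. Every result below rests on this reading, and the counts of calls with the headings taken at face value are given in the closing section.

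Plant elicitor peptides (Peps) are cut from PROPEP precursors and are recognised at the cell surface by PEPR leucine-rich repeat receptor kinases. In Arabidopsis, perception is followed within minutes by calcium influx, MAP kinase activation and oxidative burst, and then by transcription of WRKY factors and of ethylene, jasmonate and salicylate pathway genes. The family is regarded as an amplifier of immunity that acts beside receptors of microbial patterns such as FLS2, the flagellin receptor.

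The total counts per library were 38031542 to 47720413 in PpPep2 1 h leaves and 39985204 to 49253467 at t0, and 20600 to 20947 genes had at least 1 count in PpPep2 1 h leaves against 20490 to 20751 at t0. No gene was named as a Rubisco or chlorophyll-binding protein in the table, so the leaf blade identity was not checked by its own markers. PHLOEM PROTEIN 2-LIKE A1, a phloem protein, had 14.7, 16.2 and 13.8 CPM (read counts scaled to a common library size) in PpPep2 1 h leaves, against 12.2, 13.5 and 14 CPM at t0 (log2 fold change, log2FC, 0.17 ± 0.09, standard error; adjusted p = 0.166). CESA4, a cellulose synthase of secondary walls, had 6.87, 8.21 and 8.98 CPM in PpPep2 1 h leaves, against 7.26, 7.32 and 7.24 CPM at t0. Both groups overlapped for these vein-associated genes. Fewer cells of a type and less RNA per cell cannot be told apart in such bulk samples.

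After 1 h of PpPep2 most changes were increases. Of 18586 genes tested, 1237 (6.66%) were differentially expressed genes (DEGs: edgeR quasi-likelihood test, adjusted p below 0.01 and log2FC above 1 or below -1), of which 1148 (6.18%) were upregulated and 89 (0.479%) downregulated. Upregulated genes thus made up 92.8% of the DEGs. Their log2FC exceeded 2 in 600 genes, 3 in 347 and 5 in 109, with a median of 2.07, whereas only 7 of the downregulated genes were below -2 and their median was -1.24. The median over all genes tested was -0.03. In 1143 of the upregulated genes and in all 89 downregulated genes the 3 libraries of one group lay wholly outside those of the other; over all genes tested, 17.7% had all PpPep2 1 h libraries above and 16.8% all below the t0 libraries.

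The upregulated genes were mostly genes of low level in t0 leaves. When genes were split by t0 level into 4 bins of 4646 or 4647 genes, 12.4% were upregulated in the lowest bin, up to 2.35 CPM, and 6.61%, 3.79% and 1.96% in the bins above it. The downregulated share showed the same order at a smaller scale, from 0.624% in the lowest bin to 0.237% in the highest. The t0 level is itself part of the fold change, so this split is a description. Together the 1148 upregulated genes took 5.33, 3.58 and 5.30% of all scaled counts in PpPep2 1 h leaves, against 1.29, 1.17 and 1.3% at t0, and the 89 downregulated genes took 0.0716, 0.0744 and 0.0582%, against 0.154, 0.149 and 0.157% at t0. These genes were chosen on the same libraries, so the direction of both sums was set by that choice and only their size is described. In 12 of the upregulated genes no t0 library had a count, while 35 to 358 counts were pooled from the PpPep2 1 h libraries.

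**Figure D1:**
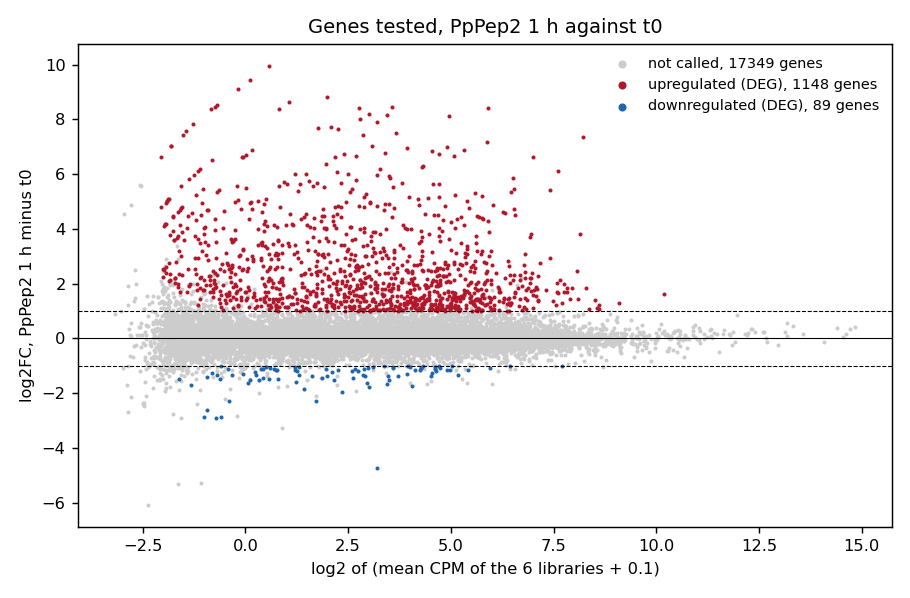
Mean level over the 6 libraries (x axis, log2 of CPM plus 0.1) against the log2FC of PpPep2 1 h minus t0 (y axis) for the 18586 genes tested, with dashed lines at log2FC 1 and -1. The 1148 upregulated genes (red) reach much farther from 0 than the 89 downregulated genes (blue), most of which lie just below -1.

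Replicate 2 of PpPep2 1 h stood apart from its partners. It was the lowest of the 3 in 983 of the 1148 upregulated genes, with a median of 0.761 of the group mean, against 1.14 in replicate 1 and 1.09 in replicate 3. Among downregulated genes it was the highest of the 3 in 50 of 89. Leaving it out gave 1382 DEGs (1263 up, 119 down). Most of the upregulated genes described below were lowest in this library.

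The groups also differed in flowcell. PpPep2 1 h libraries had 71.1, 100 and 100% of their reads on flowcell CC5TYANXX, on which no t0 library was run. In a fit with that share as a covariate, which could separate flowcell from group only through the PpPep1 1 h libraries (0, 100 and 100%) and PpPep2 1 h replicate 1, 763 genes were called (739 up, 24 down), among them 718 of the upregulated and 11 of the downregulated genes. Without the covariate the same 4 groups gave 1206. The median log2FC of the upregulated genes was 2.00 with the covariate and 2.08 without it, and that of the downregulated genes was -1.23 and -1.22. All 1147 upregulated and 88 downregulated genes that could be fitted kept their sign. The 3 PpPep1 24 h libraries, all on that flowcell, had median log2 ratios to t0 of 0.18, 0.15 and 0.04 over the same 1148 genes, against 2.1, 1.51 and 2.02 in the PpPep2 1 h libraries (on CPM plus 0.1), although they differ from these in peptide and time as well. The part of the flowcell in the PpPep2 1 h values was not tested apart from this fit. Among the called genes described below, those not called with the covariate included WRKY70, ERF1a, the VQ motif protein, CDF2, NAC002, MAPKKK18, CML46, PP2C 25, TIFY9, OPR3, CYP707A2 and SBT3.6. They also included the At5g66900 homolog, the SD1-8 type kinase, the 4 cell wall genes, GLABRA 2, HAT22, DVL10, PRUPE_5G195200 and PRUPE_1G116500. The fit with the covariate is not given for every called gene, so absence from this list does not mean that a call was kept.

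Of 227 genes placed in 17 lists by role or family, most of them from the study's own selections on these samples, 225 were tested, and 126 were upregulated and 4 downregulated. Over all genes tested, 6.18% were upregulated and 0.479% downregulated, the shares to set beside each list count below. Since the study picked most of the list genes for their response, the list counts are not independent evidence of direction. The plot of all lists shows where the members lie.

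**Figure D2:**
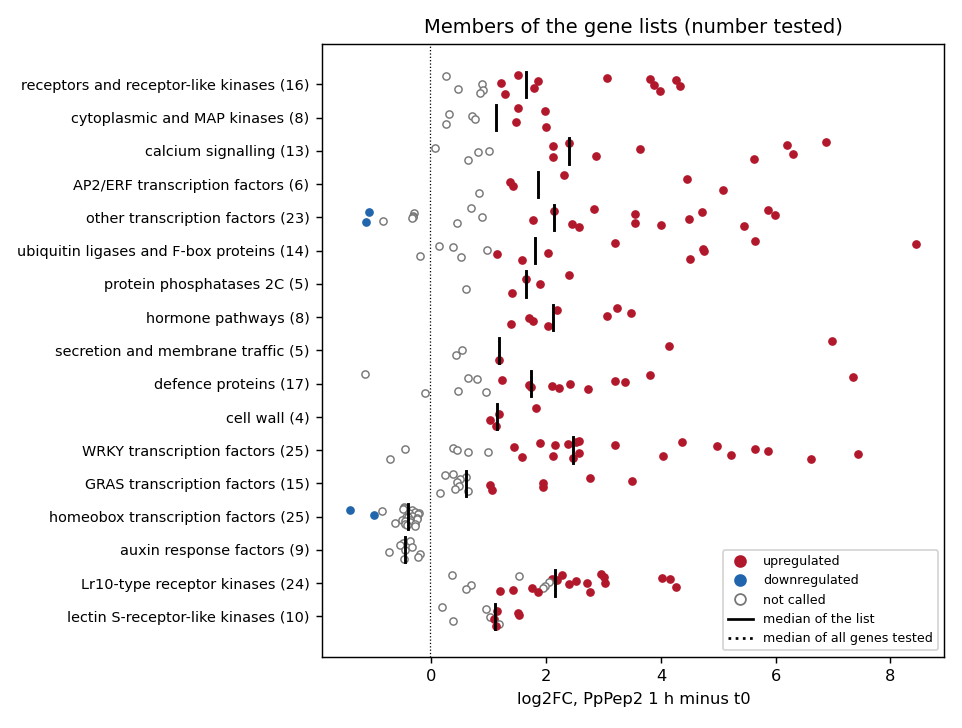
log2FC of PpPep2 1 h over t0 (x axis) for every tested member of the 17 gene lists, 1 row per list, with filled points for DEGs, a bar for the median of the list and a dotted line for the median of all genes tested (-0.03). All 8 hormone pathway genes are filled on the right, while all 25 homeobox factors and all 9 auxin response factors lie left of 0, with 2 DEGs among them.

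Among receptors and receptor-like kinases, 11 of 16 tested genes were upregulated and none downregulated, with a median log2FC of 1.65. PpPEPR1a, one of the 2 peach Pep receptor genes, had 26.1, 20.7 and 27.1 CPM in PpPep2 1 h leaves, against 9.25, 6.79 and 9.90 CPM at t0. All treated libraries were above all t0 libraries (log2FC 1.51 ± 0.17, adjusted p = 7.67e-07). PpPEPR1b, its adjacent copy, had 1.32, 1.72 and 2.18 CPM in PpPep2 1 h leaves, against 1.75, 1.10 and 1.51 CPM at t0 (log2FC 0.25 ± 0.21, adjusted p = 0.448). The groups overlapped, and the split of reads between these 2 related genes is uncertain, because the authors' counting program shares out reads that fit both.

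PpFLS2 had 3.16, 2.01 and 3.40 CPM in PpPep2 1 h leaves, against 0.270, 0.388 and 0.359 CPM at t0 (log2FC 3.06 ± 0.26, adjusted p = 1.4e-08). BIR1, which in Arabidopsis is a receptor kinase that restrains immune signalling through the co-receptor BAK1, had 284, 163 and 241 CPM, against 15.3, 15.0 and 18.8 CPM at t0 (log2FC 3.81 ± 0.21, adjusted p = 2.5e-10). The receptor-like protein gene RLP52 had 61.8, 41.3 and 55.7 CPM, against 2.2, 2.66 and 3.08 CPM at t0, the highest log2FC of the list (4.32 ± 0.19, adjusted p = 1.52e-11). None of these receptor genes overlapped between groups.

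Upregulation extended to a lectin-type receptor kinase, PRUPE_3G089700, with 84.3, 35.3 and 62.0 CPM in PpPep2 1 h leaves, against 2.79, 1.59 and 5.14 CPM at t0 (log2FC 4.27 ± 0.40, adjusted p = 5.67e-07). The receptor-like kinase At1g11050 homolog had 26.3, 12.7 and 21.3 CPM, against 1.16, 1.14 and 1.51 CPM at t0 (log2FC 3.98 ± 0.26, adjusted p = 1.39e-09). EIX2, whose tomato counterpart recognises a fungal xylanase, had a smaller log2FC of 1.78 ± 0.14 (adjusted p = 5.61e-09). The remaining upregulated members lay at 1.22 to 3.87, and 4 further genes passed the adjusted p alone, such as WAKL14, a wall-associated kinase, with a log2FC of 0.47 ± 0.07.

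Of 24 kinases of the rust resistance (Lr10) type, 17 were upregulated and none downregulated, with a median log2FC of 2.15, and in 23 of 24 the PpPep2 1 h libraries were all above t0, as in 17.7% of all genes tested. The list holds PRUPE_3G089700 as well, which the study names both as a lectin-type and as an LRK10-type kinase. PRUPE_2G088900 had 36.0, 17.6 and 26.9 CPM in PpPep2 1 h leaves, against 1.52, 1.68 and 1.29 CPM at t0 (log2FC 4.16 ± 0.24, adjusted p = 2.36e-10). PRUPE_2G088300, close to it in the annotation, had 9.83, 6.51 and 9.19 CPM, against 0.811, 0.470 and 0.263 CPM at t0 (log2FC 4.02 ± 0.29, adjusted p = 2.18e-09). At the other end, PRUPE_1G315400 overlapped between groups (log2FC 0.37 ± 0.34, adjusted p = 0.492). Many of these kinases have neighbouring identifiers and 1 family name, so values of single members are uncertain where the counting shared reads among them. How alike they are was not tested.

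Of 10 lectin S-receptor-like kinases, 5 were upregulated, with a lower median of 1.11. The highest, PRUPE_4G032900, had 9.44, 8.52 and 13.2 CPM in PpPep2 1 h leaves, against 3.83, 3.17 and 3.82 CPM at t0 (log2FC 1.52 ± 0.15, adjusted p = 7.35e-08). The call for the SD1-8 type member was lost without PpPep2 1 h replicate 3 (log2FC 0.97).

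Among cytoplasmic and MAP kinases, 4 of 8 were upregulated and none downregulated, with a median log2FC of 1.12. MPK3, a MAP kinase that is activated early in pattern-triggered immunity in Arabidopsis, had 115, 68.5 and 108 CPM in PpPep2 1 h leaves, against 33.6, 30.6 and 38.7 CPM at t0 (log2FC 1.51 ± 0.16, adjusted p = 4.6e-07). PBL19, a receptor-like cytoplasmic kinase, had 83.7, 57.2 and 93.7 CPM, against 20.1, 18.1 and 21.6 CPM at t0 (log2FC 1.97 ± 0.14, adjusted p = 2.28e-09). Neither gene overlapped between groups. ZED1, a pseudokinase that acts in recognition of a bacterial effector in Arabidopsis, was similar (log2FC 2.00 ± 0.19, adjusted p = 9.01e-08), as was MAPKKK18 (log2FC 1.47 ± 0.19, adjusted p = 4.7e-06).

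PCRK1, RIPK and MAP3K5, also kinases of this list, passed the adjusted p but not the fold threshold, with log2FC of 0.30 to 0.77. ATPK2 did not pass the test and had 14.2, 12.2 and 14.6 CPM in PpPep2 1 h leaves, against 13.2, 10.9 and 10.1 CPM at t0.

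Calcium signalling genes had one of the higher medians, 2.39, with 9 of 13 upregulated and none downregulated. CDPK11, a calcium-dependent protein kinase, had 101, 42.8 and 93.9 CPM in PpPep2 1 h leaves, against 0.728, 0.593 and 0.693 CPM at t0 (log2FC 6.88 ± 0.45, adjusted p = 7.11e-09). CDPK8 had 250, 137 and 244 CPM, against 40.7, 39.9 and 39.8 CPM at t0 (log2FC 2.39 ± 0.18, adjusted p = 6.18e-09). CDPK11 was low in every t0 library while CDPK8 was not, and both were lowest after treatment in replicate 2.

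GLR2.7, a glutamate receptor-like cation channel, had 22.3, 12.5 and 21.8 CPM in PpPep2 1 h leaves, against 0.166, 0.164 and 0.454 CPM at t0 (log2FC 6.20 ± 0.31, adjusted p = 4.1e-11). IQM1, an IQ-motif protein that binds calmodulin, had 46.9, 22.8 and 49.2 CPM, against 0.645, 0.266 and 0.598 CPM at t0 (log2FC 6.30 ± 0.40, adjusted p = 3.66e-09). BAP2, a C2-domain protein that limits cell death in Arabidopsis, had 6.72, 2.85 and 4.68 CPM, against 0.104, 0.123 and 0.0478 CPM at t0 (log2FC 5.63 ± 0.44, adjusted p = 7.02e-09). Groups were separate for all 3. BON1, which BAP2 binds in Arabidopsis, passed the adjusted p at a log2FC of 0.64 ± 0.08. The calmodulin-like gene CML46 was upregulated (log2FC 3.63 ± 0.38, adjusted p = 1.86e-06), whereas CML16 overlapped between groups, with 8.98, 6.58 and 7.02 CPM in PpPep2 1 h leaves, against 7.74, 6.56 and 7.43 CPM at t0.

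The WRKY factors, transcription factors of immunity and stress that bind W-box motifs, gave 19 upregulated and no downregulated gene of 25 tested, with a median log2FC of 2.46. WRKY33, which in Arabidopsis directs resistance to necrotrophic fungi, had 322, 147 and 285 CPM in PpPep2 1 h leaves, against 2.08, 2.31 and 3.32 CPM at t0 (log2FC 6.62 ± 0.39, adjusted p = 2.4e-09). WRKY40 had 206, 94.4 and 238 CPM, against 3.08, 1.68 and 4.59 CPM at t0 (log2FC 5.86 ± 0.60, adjusted p = 2.21e-06). WRKY29 had 14.7, 7.37 and 20.6 CPM, against 0.0416, 0.0818 and 0.120 CPM at t0 (log2FC 7.43 ± 0.44, adjusted p = 3.25e-10), the highest log2FC of the list.

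The 2 genes named WRKY53 had log2FC of 5.64 ± 0.24 (PRUPE_2G307400) and 5.21 ± 0.34 (PRUPE_5G117000). WRKY46 rose by 3.19 ± 0.25 (adjusted p = 3.86e-08) and WRKY18 by 4.37 ± 0.37 (adjusted p = 1.32e-07). The call for WRKY70 (PRUPE_2G265000), a factor between salicylate and jasmonate signalling in Arabidopsis, was weak. It had 180, 68.9 and 96.6 CPM in PpPep2 1 h leaves, against 30, 45.6 and 52.5 CPM at t0 (log2FC 1.43 ± 0.35, adjusted p = 0.00627), and was not called in 5 of the 6 fits that each left out 1 library. Its log2FC was 0.97 without PpPep2 1 h replicate 1, 1.55 without PpPep2 1 h replicate 3, and 1.23, 1.49 and 1.61 without t0 replicates 1, 2 and 3. WRKY44, a factor of trichome and seed coat development in Arabidopsis, had 41.9, 45.7 and 41.2 CPM, against 73.6, 68.8 and 70.7 CPM at t0. It was lower in every PpPep2 1 h library but short of the fold threshold (log2FC -0.73 ± 0.06, adjusted p = 2.26e-08).

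In the AP2/ERF family, which includes ethylene response factors, 5 of 6 genes were upregulated, with a median log2FC of 1.86. ERF1a had 178, 90.4 and 191 CPM in PpPep2 1 h leaves, against 23.3, 32.6 and 37.4 CPM at t0 (log2FC 2.30 ± 0.33, adjusted p = 6.31e-05). PTI5 had 120, 61.3 and 113 CPM, against 3.58, 3.64 and 6.36 CPM at t0 (log2FC 4.45 ± 0.34, adjusted p = 4.79e-08). DREB1D, a factor of drought and cold responses, had 3.12, 1.96 and 2.53 CPM, against 0.0624, 0.0613 and 0.0956 CPM at t0 (log2FC 5.08 ± 0.45, adjusted p = 2.41e-08). None of the 3 overlapped between groups. TEM1, a repressor of flowering in Arabidopsis, passed the adjusted p at a log2FC of 0.82 ± 0.17. Only 2 of the 6 were called with the flowcell covariate.

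Of 23 other transcription factors and regulators, 13 were upregulated and 2 downregulated, with a median log2FC of 2.14. BHLH41 had 18.2, 13.2 and 22.7 CPM in PpPep2 1 h leaves, against 0.146, 0.388 and 0.311 CPM at t0 (log2FC 5.99 ± 0.47, adjusted p = 3.67e-08). The zinc finger gene ZAT11 had 33.2, 12.2 and 21.9 CPM, against 0.229, 0.532 and 0.382 CPM at t0 (log2FC 5.87 ± 0.50, adjusted p = 1.31e-07). ZAT10, also a zinc finger factor, had 170, 106 and 170 CPM, against 17.9, 21.1 and 23.6 CPM at t0 (log2FC 2.83 ± 0.21, adjusted p = 8.75e-09). The groups were separate in each.

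SARD1, which in Arabidopsis switches on salicylate synthesis, had 69.3, 33.1 and 43.9 CPM in PpPep2 1 h leaves, against 4.22, 3.27 and 5.07 CPM at t0 (log2FC 3.55 ± 0.29, adjusted p = 7.82e-08). A VQ motif protein (PRUPE_6G218300) had 2 counts in all over the t0 libraries and 0.922, 0.177 and 1.2 CPM after PpPep2, a ratio of 51.1 with a 95% interval of 13.8 to 428 for counting error only. It was not called with the flowcell covariate (adjusted p = 0.115). NAC021 and JUB1, both NAC factors, rose by 2.14 ± 0.17 and 3.55 ± 0.24 on the log2 scale. The bZIP34 gene did not pass the test (log2FC 0.69 ± 0.27, adjusted p = 0.0804).

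CDF2, a Dof factor that represses flowering in Arabidopsis, was one of the 2 downregulated members. It had 16.2, 18.8 and 10.6 CPM in PpPep2 1 h leaves, against 30.4, 39.2 and 30.8 CPM at t0 (log2FC -1.13 ± 0.20, adjusted p = 0.00027). All its treated libraries were lower, but its log2FC came to -0.94 without PpPep2 1 h replicate 3 and to -0.99 without t0 replicate 2, short of the fold threshold. NAC002 had 0.614, 1.28 and 0.789 CPM, against 2.04, 1.43 and 2.27 CPM at t0 (log2FC -1.08 ± 0.29, adjusted p = 0.0096), and was called in 2 of the 6 fits that left out 1 library. It was not called without PpPep2 1 h replicate 1 (log2FC -0.85) or replicate 3 (-1.01), or without t0 replicate 1 (-1.03) or replicate 3 (-0.95).

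The GRAS family, which holds DELLA and scarecrow-like factors, had 6 of 15 genes upregulated and a median log2FC of 0.60. Scarecrow-like protein 30 (PRUPE_6G073300) had 4.61, 2.52 and 3.67 CPM in PpPep2 1 h leaves, against 0.208, 0.388 and 0.359 CPM at t0 (log2FC 3.49 ± 0.32, adjusted p = 3.32e-08). Scarecrow-like protein 21 had 112, 69.7 and 120 CPM, against 14.5, 14.9 and 14.8 CPM at t0 (log2FC 2.77 ± 0.19, adjusted p = 3.25e-09). These were the strongest, with separate groups. Another gene named scarecrow-like protein 30 (PRUPE_6G073600) lost its call without PpPep2 1 h replicate 1 (log2FC 0.83) or t0 replicate 1 (0.888) or 2 (0.885). Scarecrow-like protein 14 lost its call without PpPep2 1 h replicate 3 (0.983) or t0 replicate 2 (0.996). The fit of these genes with the flowcell covariate is not given here. Both DELLA genes of the list, which act in gibberellin signalling, did not pass the test (log2FC 0.38 and 0.40).

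Ubiquitin ligases and F-box proteins, which mark proteins for degradation, had 9 of 14 genes upregulated and a median log2FC of 1.81. PUB21 had 30.4, 13.7 and 26.9 CPM in PpPep2 1 h leaves, against 0.0416, 0.0613 and 0.0956 CPM at t0 (log2FC 8.45 ± 0.47, adjusted p = 3.9e-10). The gene named U-box protein 21 had 64.3, 32.5 and 58.0 CPM, against 0.270, 1.82 and 0.980 CPM at t0 (log2FC 5.64 ± 0.61, adjusted p = 3.8e-06). PUB28 had 104, 46.2 and 101 CPM, against 2.62, 3.21 and 3.47 CPM at t0 (log2FC 4.76 ± 0.37, adjusted p = 5e-08). PUB21 had the largest log2FC of all the named list members, and all 3 ligases were near silent or low in every t0 library.

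PUB24, which with related ligases damps pattern-triggered immunity in Arabidopsis, had a log2FC of 4.72 ± 0.47 (adjusted p = 1.05e-07) from 0.0409 to 0.0832 CPM at t0. The F-box gene SKIP27 rose by 4.50 ± 0.34 (adjusted p = 2.31e-08). The RING ligase gene ATL22 had a log2FC of 3.2 ± 0.23 (adjusted p = 3.79e-09). ATL6 was upregulated at 1.15 ± 0.13 but not without PpPep2 1 h replicate 1 (0.97). RING1A had 24.3, 24.2 and 25.1 CPM, against 31.1, 27 and 26.3 CPM at t0, and did not pass the test (adjusted p = 0.0366).

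Of the protein phosphatases 2C, a family whose members oppose kinase signalling, 4 of 5 were upregulated, with a median log2FC of 1.64. PP2C 25 had 22.3, 13 and 20 CPM in PpPep2 1 h leaves, against 2.75, 3.52 and 4.30 CPM at t0 (log2FC 2.39 ± 0.29, adjusted p = 6.96e-06), but was not called with the flowcell covariate (log2FC 2.06, adjusted p = 0.0288). PP2C 49 and PP2C 39 had log2FC of 1.89 ± 0.17 and 1.64 ± 0.16.

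All 8 hormone pathway genes were upregulated, with a median log2FC of 2.11. LOX1.5, a lipoxygenase, had 81.8, 40.1 and 86.9 CPM in PpPep2 1 h leaves, against 5.86, 4.6 and 8.39 CPM at t0 (log2FC 3.48 ± 0.27, adjusted p = 2.81e-08). OPR3, an enzyme of jasmonate synthesis, had 232, 131 and 237 CPM, against 45.0, 29.3 and 56.9 CPM at t0 (log2FC 2.19 ± 0.29, adjusted p = 2.72e-05). TIFY9, a gene of the JAZ repressor family of jasmonate signalling, had 56.5, 34.9 and 80.9 CPM, against 5.26, 2.62 and 10.6 CPM at t0 (log2FC 3.23 ± 0.49, adjusted p = 0.000131). The groups were separate in all 3 genes.

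CYP707A2, which breaks down abscisic acid, had 20.9, 10.5 and 25.5 CPM in PpPep2 1 h leaves, against 2.54, 2.39 and 1.84 CPM at t0 (log2FC 3.06 ± 0.34, adjusted p = 2.35e-06). NPR2, of the family of salicylate receptors, had 101, 69.5 and 96.2 CPM, against 26.5, 25.5 and 26.4 CPM at t0 (log2FC 1.76 ± 0.11, adjusted p = 2.15e-10). The groups were separate in both. With the flowcell covariate, 3 of the 8 hormone genes were called.

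Of 5 genes of secretion and membrane traffic, 3 were upregulated and the other 2, VPS2.1 and EXO70B1, passed the adjusted p only. SYP121, a plasma membrane syntaxin that in Arabidopsis delivers material to sites of fungal entry, had 39.9, 18.7 and 32.3 CPM in PpPep2 1 h leaves, against 0.146, 0.225 and 0.359 CPM at t0 (log2FC 6.97 ± 0.38, adjusted p = 3.86e-10). EXO70H1, an exocyst subunit, had 4.32, 2.14 and 4.27 CPM, against 0.291, 0.184 and 0.120 CPM at t0 (log2FC 4.13 ± 0.36, adjusted p = 2.41e-08). TOL6, a ubiquitin-binding sorting protein, had a smaller but tight difference (log2FC 1.18 ± 0.09, adjusted p = 1.6e-09).

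Of 17 defence proteins tested, 11 were upregulated and none downregulated, with a median log2FC of 1.74. Basic 7S globulin 2, named after a soybean seed protein, had 680, 288 and 801 CPM in PpPep2 1 h leaves, against 2.91, 2.43 and 5.62 CPM at t0 (log2FC 7.35 ± 0.70, adjusted p = 8.53e-07). Peroxidase 44, a class III peroxidase, had 649, 230 and 714 CPM, against 26.1, 44.2 and 43.9 CPM at t0 (log2FC 3.80 ± 0.41, adjusted p = 2.61e-06). Both were lowest in replicate 2 of the PpPep2 1 h leaves, and still far above every t0 library.

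The resistance protein gene RPP13L4 had 15.3, 10.5 and 13.2 CPM in PpPep2 1 h leaves, against 1.25, 1.14 and 1.39 CPM at t0 (log2FC 3.37 ± 0.22, adjusted p = 5.45e-10). HSPRO2, named for a sugar beet nematode resistance gene, had 122, 57.6 and 112 CPM, against 8.26, 13.2 and 10.5 CPM at t0 (log2FC 3.19 ± 0.30, adjusted p = 4.73e-07). EDR4, NSL1 and CAD1, which in Arabidopsis restrain defence or cell death, had log2FC of 2.73 ± 0.19, 2.1 ± 0.18 and 1.74 ± 0.14. For 2 further calls, the resistance gene At5g66900 homolog and the subtilase SBT3.6, leaving out t0 replicate 1 alone was enough to lose the call (log2FC 1.48 and 1.04, adjusted p = 0.0161 and 0.0133). At5g66900 was also lost without PpPep2 1 h replicate 1 (log2FC 1.35) or t0 replicate 2 (1.44), and SBT3.6 without t0 replicate 3 (1.06).

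PR4, a chitin-binding pathogenesis-related protein, had 6.23, 4.06 and 5.52 CPM in PpPep2 1 h leaves, against 4.64, 8.55 and 22.2 CPM at t0 (log2FC -1.16 ± 0.51, adjusted p = 0.121). The groups overlapped and the t0 libraries were widely spread. The chitinase CHIT5A and the trypsin inhibitor KTI2 passed the adjusted p but not the fold threshold (log2FC 0.64 ± 0.14 and 0.79 ± 0.18).

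All 4 cell wall genes were upregulated, with a median log2FC of 1.15, but each call depended on single libraries. XTH2, a xyloglucan-modifying enzyme, had 16.7, 7.28 and 18.7 CPM in PpPep2 1 h leaves, against 7.09, 1.14 and 3.78 CPM at t0 (log2FC 1.82 ± 0.45, adjusted p = 0.00752). It was not called without PpPep2 1 h replicate 1 (log2FC 1.71) or replicate 3 (1.58), or without t0 replicate 2 (1.39) or replicate 3 (1.79). COBRA, which orients cellulose deposition, was at 0.94 without t0 replicate 2, against 1.18 ± 0.19 with all libraries. GATL3 was at 0.96 without PpPep2 1 h replicate 3 and 0.98 without t0 replicate 2, against 1.12 ± 0.18 with all libraries. XAT3, an arabinosyltransferase of xylan, was at 1.02 ± 0.16 with all libraries and fell below the threshold without PpPep2 1 h replicate 1 (0.93), PpPep2 1 h replicate 3 (0.94) or t0 replicate 3 (0.96). None of the 4 was called with the flowcell covariate.

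**Figure D3:**
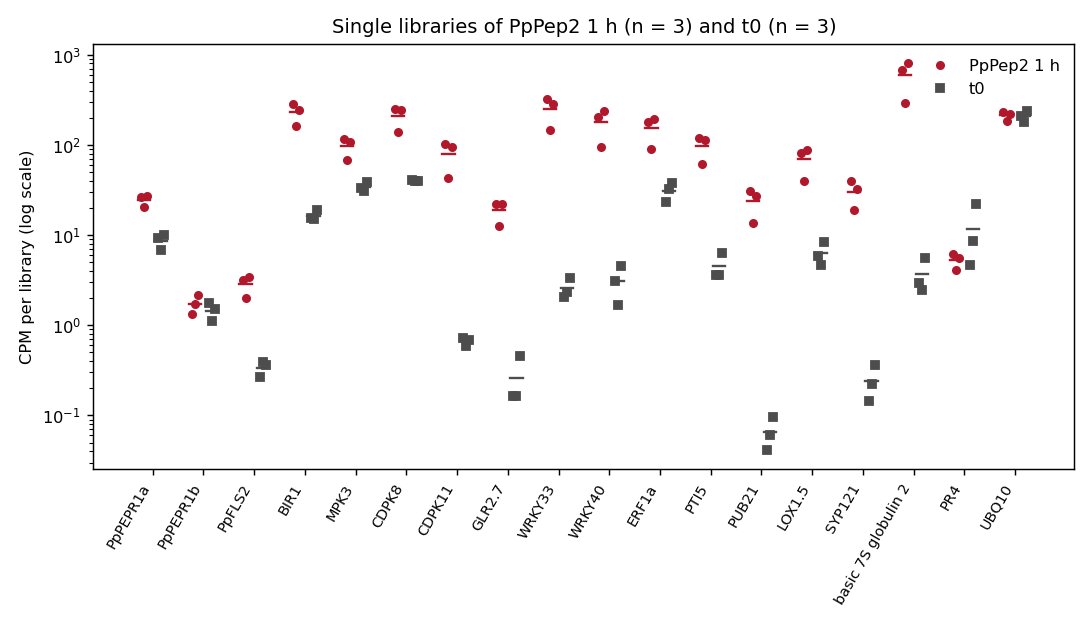
CPM in each library (points, log scale) and group mean (bar) of 18 named genes in PpPep2 1 h leaves (red circles) and at t0 (grey squares), in the order of replicates 1, 2 and 3. The groups are separate in all but PpPEPR1b, PR4 and UBQ10, and the middle red point, replicate 2, is the lowest of its group in most genes.

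Downregulation in the lists was sparse. Of 25 homeobox factors, which control meristem, epidermal and vascular patterning, 2 were downregulated and none upregulated, with a median log2FC of -0.41. The members had log2FC of -1.41 to -0.22, and 6 more passed the adjusted p alone. In 20 of 25 every PpPep2 1 h library was below every t0 library, which held for 16.8% of all genes tested. GLABRA 2, a factor of epidermal cell fate in Arabidopsis, had 22.1, 23.3 and 20 CPM in PpPep2 1 h leaves, against 50.2, 38.1 and 43.2 CPM at t0 (log2FC -1.01 ± 0.12, adjusted p = 1.28e-06). It came to -0.95 without PpPep2 1 h replicate 3 and -0.90 without t0 replicate 1. HAT22 had 0.307, 0.154 and 0.218 CPM, against 0.520, 0.552 and 0.765 CPM at t0 (log2FC -1.41 ± 0.33, adjusted p = 0.00324). Its call was lost without PpPep2 1 h replicate 2 (log2FC -1.19) or replicate 3 (-1.39), or without t0 replicate 3 (-1.23). Neither was called with the flowcell covariate.

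None of the 9 auxin response factors, which turn auxin levels into transcription, was a DEG, and their log2FC were -0.73 to -0.20, with a median of -0.47. In 8 of 9 every PpPep2 1 h library was below t0, against the 16.8% of all genes tested. Auxin response factor 9 had 22.7, 24.2 and 19.4 CPM in PpPep2 1 h leaves, against 37.6, 38.1 and 34.6 CPM at t0 (log2FC -0.73 ± 0.08, adjusted p = 5.68e-07). It was the lowest of the list, and 3 of the 9 passed the adjusted p. Both lists hold the genes that the study listed as contributing to an enrichment in these samples, not whole families, so their shared sign is not independent evidence of direction.

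Among the genes with the highest and lowest fitted log2FC were some to which no source used here gives a name. PRUPE_8G124400 had 3.99, 1.83 and 2.53 CPM in PpPep2 1 h leaves and no count in any t0 library, at least 130-fold higher against a floor of 3 counts pooled over t0. PRUPE_5G090800 had 1.38, 1.39 and 3.16 CPM and again no t0 count, at least 87.7-fold higher. PRUPE_5G195200 had 0.746, 1.04 and 0.109 CPM, against 5.41, 35.7 and 11.7 CPM at t0 (log2FC -4.74 ± 1.06, adjusted p = 0.00406). This call was lost without any one of the 3 PpPep2 1 h libraries (log2FC -4.83, -5.26 and -4.30 without replicates 1, 2 and 3) and without t0 replicate 2, the highest library (-3.68). PRUPE_1G116500 had 0.110, 0.154 and 0.0816 CPM, against 0.998, 1.00 and 0.717 CPM at t0 (log2FC -2.93 ± 0.42, adjusted p = 2.11e-05), with tight and separate groups.

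The calls were read again with each of the 6 libraries left out in turn. Of the upregulated genes, 965 of 1148 were called in all 6 fits, against 31 of 89 downregulated genes. Without PpPep2 1 h replicate 3 alone, 48 genes were downregulated in place of 89. In the lists, 115 of the 130 called genes were. UBQ10, a ubiquitin gene that the study assessed as a RT-qPCR reference, had 232, 186 and 222 CPM in PpPep2 1 h leaves, against 211, 177 and 235 CPM at t0. The groups overlapped (log2FC 0.04 ± 0.10, adjusted p = 0.827). The study normalized its RT-qPCR to another gene, TEF2, whose values are not given here.

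The 1 h state was compared with the later times, which share the t0 libraries. The 1148 genes upregulated at 1 h had a median log2FC over t0 of 2.07 at 1 h, 0.23 at 24 h and 0.26 at 48 h of PpPep2. Of them, 94 were upregulated at 24 h and 46 at 48 h, where 1.02% and 1.42% of all genes tested were. The 89 genes downregulated at 1 h had medians of -1.24, -0.02 and 0.16, with 6 and 5 of them downregulated at the later times (0.296% and 1.18% of all genes). Since these genes were chosen on the 1 h contrast, their lower later values are a description.

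**Figure D4:**
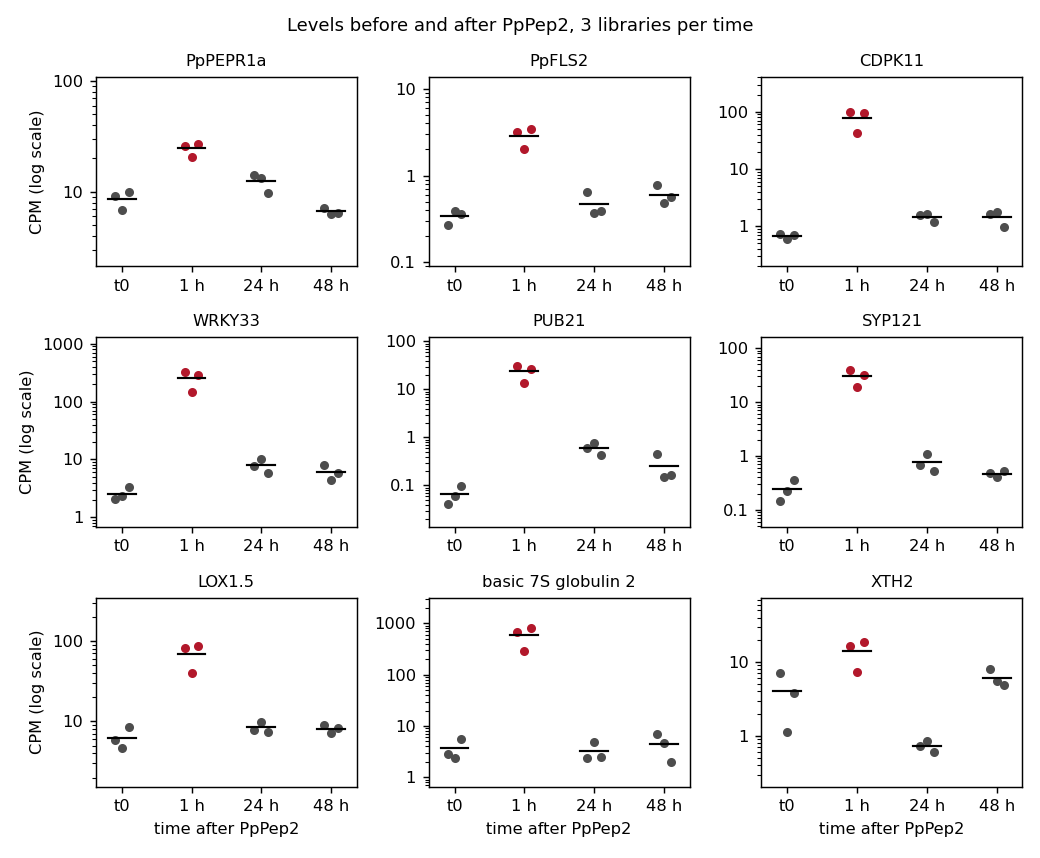
Level (CPM, log scale) of 9 named genes at t0 and 1, 24 and 48 h after PpPep2, with 3 libraries (points) and their mean (bar) per time. The 1 h libraries are highest for all but XTH2, which overlaps between 1 h and 48 h.

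WRKY33 averaged 251 CPM at 1 h, 7.99 CPM at 24 h and 6.06 CPM at 48 h, against 2.57 CPM at t0. PUB21 averaged 23.7, 0.597 and 0.251 CPM at these times, against 0.0662 CPM at t0, and was still called at 24 h (log2FC 3.16, adjusted p = 0.00984). Basic 7S globulin 2 averaged 590 CPM at 1 h but 3.21 CPM at 24 h and 4.55 CPM at 48 h, against 3.65 CPM at t0. PpPEPR1a, PpFLS2, CDPK11, SYP121 and LOX1.5 were called at neither later time. None of the PpPep2 24 h and PpPep2 48 h libraries had reads on flowcell CC5TYANXX, which held most reads of the PpPep2 1 h libraries.

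The response to PpPep2 at 1000 nM was set against that to the second peach peptide, PpPep1, at 100 nM, both at 1 h. The doses differ, so peptide and dose cannot be told apart. Only 3 genes (0.0161%) were DEGs between the peptides, all higher after PpPep2, and DESeq2 called 3 as well. At an unadjusted p below 0.05 there were 2470 genes (13.3%), 1207 higher and 1263 lower after PpPep2. The genes upregulated after PpPep2 had a median log2FC over t0 of 2.07 after PpPep2 and 1.80 after PpPep1, and 947 of the 1148 were upregulated after PpPep1, where 5.44% of all genes were. The downregulated genes had medians of -1.24 after PpPep2 and -0.99 after PpPep1, and 36 of 89 were downregulated after PpPep1 (0.463% of all genes). Both sets were chosen on the contrast of PpPep2 1 h with t0, so that choice alone favours larger values and more calls after PpPep2. The medians and shared calls are therefore a description and do not rank the peptides. These comparisons share the t0 libraries, and a p above the threshold does not show that the peptides act alike.

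Gene by gene, the values stood side by side. WRKY33 had a log2FC over t0 of 6.62 after PpPep2 and 6.28 after PpPep1, CDPK11 of 6.88 and 6.33, PpPEPR1a of 1.51 and 1.32, and PpFLS2 of 3.06 and 2.36. ERF1a, at 2.30 after PpPep2 and 2.63 after PpPep1, stood in the other order. The 3 genes that differed have no name here and were picked out after their values were seen. PRUPE_2G178200 had 40.2, 42.6 and 47.2 CPM after PpPep2, against 20.7, 21.7 and 20.5 CPM after PpPep1 (log2FC 1.05 ± 0.09, adjusted p = 9.8e-06). PRUPE_1G346200 had 8.23, 7.68 and 9.85 CPM after PpPep2, against 3.97, 4.3 and 3.49 CPM after PpPep1 (log2FC 1.13 ± 0.16, adjusted p = 0.00449). PRUPE_4G071100 had 15.5, 13.1 and 18.3 CPM after PpPep2, against 6.45, 8.59 and 7.55 CPM after PpPep1 (log2FC 1.05 ± 0.14, adjusted p = 0.0022). All 3 were also upregulated over t0 after PpPep2, and of them only PRUPE_2G178200 was so after PpPep1. PRUPE_2G178200 alone was called with the flowcell covariate, and none without PpPep2 1 h replicate 3, while 13 genes were called without PpPep2 1 h replicate 2.

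**Figure D5:**
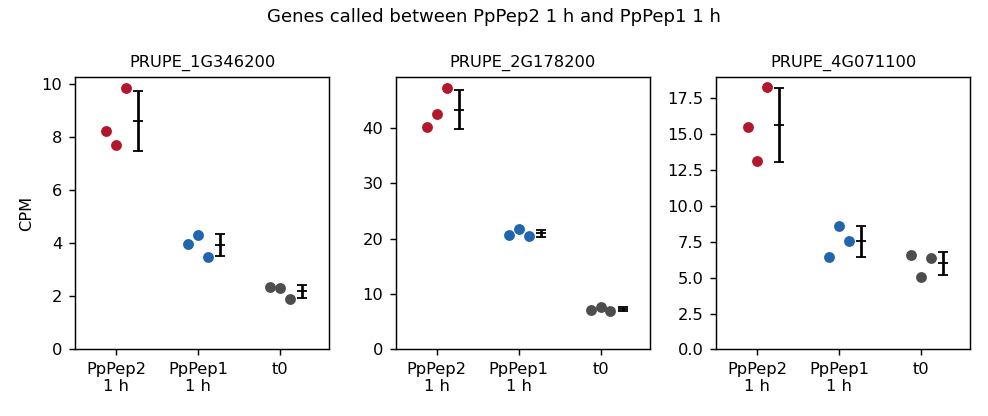
CPM of the 3 genes called between the peptides, in each library (points) with the mean and SD (bars, n = 3), after 1 h of PpPep2 at 1000 nM, after 1 h of PpPep1 at 100 nM and at t0. In all 3 genes, which were chosen on this contrast, the PpPep2 libraries are above the PpPep1 libraries. The PpPep1 libraries overlap t0 in PRUPE_4G071100 only.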

How the data were processed

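RNA from peach leaf blades was sequenced on stranded mRNA libraries (21 libraries, 7 groups of 3). The authors aligned the reads with STAR 2.5.3a to the genome NCBIv2 and estimated expression with RSEM 1.3.0, and deposited expected counts per gene as whole numbers, not normalized; they used DESeq2 1.20.0 for their own tests. Molecular identifiers were in the adaptors, and their use in counting was not given in the sources used here. RSEM shares reads among related genes. Columns were assigned to libraries by the match described above; the total was set against read pairs assigned to a single gene, the quantity for which the stated limits hold.

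Here, genes were filtered by filterByExpr, scaled by TMM and fitted with edgeR 4.0.16 (R 4.3.3) by a robust quasi-likelihood model over the 7 groups, with Benjamini-Hochberg adjustment over all 18586 genes tested. DEGs had adj. p below 0.01 and log2FC above 1 or below -1. Standard errors came from the F statistic. CPM are TMM-scaled and not divided by gene length, so levels of different genes were not compared. With 3 libraries per group, counting intervals and floors cover counting error only. The fit was tested on simulated data. Alternatives used DESeq2 1.42.0, RLE scaling, other filters, the 6 libraries alone, a replicate block, a flowcell covariate, each library left out, and the columns as headed; the 4 groups without the covariate were added after seeing the data. Figures were drawn with matplotlib 3.10.9.

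The gene lists and names came from the study's supplementary files, and the genes named in the text were those with RT-qPCR assays, the Pep and flagellin receptors, the 3 highest and the lowest of each list, and at most 2 unnamed genes with the largest changes in each direction; other list members were named after their values were seen. Lists and members were chosen with earlier results of these data known. Replicates of a group differed by 25.0 to 57.7 times counting error, more than counting the same library again would give. Whether they came from separate RNA was not tested. Sequences of the genes were not used here.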

Additional observations from a re-analysis of the deposited data

Results flagged for a closer look

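The contrast between the peptides at 1 h singled out 3 genes, none with a name in the sources used here, because the difference between the responses to PpPep2 and PpPep1 was itself tested. PRUPE_1G346200 was higher after PpPep2 by a log2FC of 1.13, PRUPE_2G178200 by 1.05 and PRUPE_4G071100 by 1.05. All 3 PpPep2 libraries were above all 3 PpPep1 libraries in each, which their choice on this same contrast made likely. The share of all genes tested with such a separation was not counted. The doses were 1000 nM for PpPep2 and 100 nM for PpPep1. Only PRUPE_2G178200 kept its call with the flowcell covariate, and its log2FC was 0.98 without PpPep2 1 h replicate 3.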

How the results depend on the processing

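DESeq2 (1271 DEGs), RLE scaling (1237), no filter (1244), a stricter filter (1088) and the 6 libraries alone (1063) gave counts within 1.5 times the 1237 DEGs, except that the 6 libraries alone gave 59 downregulated genes. The flowcell covariate gave 763 DEGs (739 up, 24 down), no threshold on log2FC gave 2773 (1979 up, 794 down), and the columns as headed gave 244 (189 up, 55 down). Without 1 library the DEGs numbered 1102 to 1382, with 1054 to 1263 upregulated and 48 to 119 downregulated, the lowest count of downregulated genes being that without PpPep2 1 h replicate 3. Upregulated list members numbered 13 with the columns as headed. The 4 downregulated list members were 1 under the stricter filter, 1 in the 6 libraries alone, 0 with the flowcell covariate, 2 in the same 4 groups without it, 16 with no fold threshold and 2 as headed, and 0 to 4 without 1 library. Between the peptides edgeR called 0 genes in the 6 libraries alone (2536 at an unadjusted p below 0.05), 1 with the flowcell covariate, 1 in the same 4 groups without it and 0 to 13 without 1 library, with 0 (1539 unadjusted) without PpPep2 1 h replicate 3 and 13 without replicate 2. The cause of these differences was not tested. Neither scaling moved the median gene by more than 0.001 on the log2 scale.

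The replicate numbers are shared by the groups. Deviations of same-numbered libraries correlated at -0.083, 0.251 and 0.01, and 1 of 3 libraries correlated best with its own number. So few libraries cannot show whether same-numbered samples share more than a number. The replicate block gave 1230 DEGs (1143 up, 87 down) against t0 and 3 between the peptides.

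With the columns as headed, the library set called PpPep2 1 h was the one matched to PpPep2 24 h, and the log2FC changed sign in 34 named genes. Values then were ERF1a -0.52, bZIP34 -2.16, U-box protein 21 -0.45, PR4 1.33, basic 7S globulin 2 -0.17, XTH2 -2.44, UBQ10 -0.035, the At1g11050 homolog -0.19, ZED1 -0.17, ATPK2 -0.37, CML16 -0.094, DREB1D -2.30, TEM1 -1.17, ZAT11 -0.44 and the VQ motif protein -0.94. They were CDF2 0.32, PP2C 39 -0.36, PP2C 10 -0.11, CYP707A2 -0.69, 4CLL5 -0.31, VPS2.1 -0.002, GATL3 -0.81, XAT3 -0.47, WRKY44 0.008, SAWADEE HOMEODOMAIN HOMOLOG 1 0.077 and HOMOLOG 2 0.053, HAT22 0.62 and auxin response factor 18 0.20. They were also PRUPE_1G315400 -0.25, PRUPE_4G195000 -0.001, PRUPE_3G070000 -0.27, PRUPE_5G195200 0.037, PRUPE_1G346200 -0.27 and PRUPE_4G071100 -0.23. Without 1 library the log2FC of UBQ10 ranged over -0.057 to 0.138 and that of CML16 over -0.077 to 0.146.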

Other observations

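Some upregulated genes carried neighbouring identifiers. Of the 1148, 326 (28.4%) stood in 135 runs of 2 or more consecutive identifiers that were all upregulated, and 12 runs held 4 or more. The longest run, PRUPE_1G127100 to PRUPE_1G127900, had 9 genes with log2FC of 1.43 to 6.84. Runs with a named member were those of ZED1 (6 genes, 1.85 to 2.64), of TMV resistance protein N (5 genes, 2.31 to 3.2) and of XTH2 (4 genes, 1.82 to 2.47). Neighbouring copies can share reads in the counting, and the part of that sharing in these runs was not tested, nor was the share of runs set against that of genes spread at random.

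Few of the 241 tested protein-coding genes that the count table itself names were DEGs, 4 up and 0 down by edgeR, where 6.66% of all genes tested were DEGs. DVL10, of a family of small peptides of plant development, had 7.55, 2.85 and 9.06 CPM in PpPep2 1 h leaves, against 0.665, 0.368 and 1.31 CPM at t0 (log2FC 3.07 ± 0.47, adjusted p = 9.99e-05), and was not called with the flowcell covariate. ATNEK4, a NIMA-related kinase, had 33.8, 22.3 and 24.7 CPM, against 9.61, 11.3 and 9.61 CPM at t0 (log2FC 1.4 ± 0.12, adjusted p = 1.58e-08). A calmodulin-binding protein (PRUPE_1G441300, log2FC 2.87) and NAC021 (2.14) were the others.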
